A study of Mus musculus with 6 samples.

Results

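The p53 response genes described here are target genes and regulators of the tumour suppressor p53 other than the gene of the cell cycle inhibitor p21. They were measured on arrays in primary fibroblasts from the lungs of adult mice. The rule named 10 genes by their symbols: Trp53, Mdm2, Trp53inp1, Ccng1, Sesn1, Sesn2, Bax, Bbc3, Fas and Gadd45a. Of these, 7 had a probe set annotated with that symbol alone and were measured, among 22180 genes in all, and each of the 7 had 1 probe set. Trp53 and Bax were not analysed here. The probe set that names Gadd45a also names E230016M11Rik, so no value is given for it.

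The 6 arrays fell into 3 wells given 1 µg/ml 4-hydroxytamoxifen (4OHT), an oestrogen receptor ligand formed from tamoxifen, for 48 h, and 3 wells given vehicle for the same time. All 6 carried the genotype UBCCreERT/RSmoM2 on a mixed strain background, in which a tamoxifen-inducible Cre recombinase, expressed from the broadly active ubiquitin C promoter, switches on SmoM2, a constitutively active form of the hedgehog signal transducer Smoothened. Vehicle wells held both alleles too, so exposure to the drug, induction of Cre and the activated SmoM2 allele differ together between the groups and cannot be told apart. Wells were split from freshly isolated cells, and the labels do not say that they came from different animals. The tests thus see well-to-well spread alone, possibly technical, and with so few arrays each value is known only coarsely.

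p53 is a transcription factor that is normally held low by Mdm2, a ubiquitin ligase that binds it and marks it for destruction. DNA breaks and other stresses release it through the kinases Atm, Atr and their partners, and it then binds a paired sequence element in its target genes. The targets slow the cell cycle, repair DNA, restrain growth signalling, and, in cells that go on to die, open mitochondria or arm death receptors. Mdm2 is itself a target, which closes a feedback loop. In fibroblasts the arrest arm is known to dominate over the death arm.

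The element that p53 binds can be shown for the promoters of the measured genes. RefSeq windows that run from 250 bases before to 50 bases after each transcript start (GRCm38.p6) were available for 6 of the 7 measured genes, and not for Trp53inp1. Each window was searched for its best match to the p53 consensus response element of 20 bases with no spacer, which reads the same on both strands. The best match of each gene is printed 5′ to 3′ because it shows which promoters carry a near-complete element next to an annotated transcript start. Capitals mark bases that fit the consensus and lower case marks those that do not.
Ccng1, chr11:40755462-40755481, minus strand: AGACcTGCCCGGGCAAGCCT
Bbc3, chr7:16309486-16309505, plus strand: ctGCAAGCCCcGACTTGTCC
Sesn1, chr10:41887266-41887285, plus strand: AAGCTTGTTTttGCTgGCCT
Mdm2, chr10:117710925-117710944, minus strand: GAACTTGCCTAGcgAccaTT
Sesn2, chr4:132510463-132510482, minus strand: GGGCgAGCgCtGGCAgtTCC
Fas, chr19:34290499-34290518, plus strand: GGGCTTtaCgAAGaTTGTgT
Cdkn1a, the p21 gene, chr17:29090928-29090947, plus strand: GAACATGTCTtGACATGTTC

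The windows of Ccng1 and Cdkn1a each held a site that fits at 19 of 20 bases, 195 and 51 bases before an annotated start. Cdkn1a and Sesn1 had 2 windows and Bbc3 had 3. The best match over a gene's windows was kept, so its start need not be the main one. Of 27025 genes with a window, 0.107% had a match at least that good. Bbc3 and Sesn1 each had a site that fits at 17 of 20 bases, which 7.20% of genes matched or bettered. Mdm2, Sesn2 and Fas had none better than 15 of 20 bases, a level that 79.2% of genes reach. A match describes letters and is not a measured binding site, and sites outside these windows, such as those in the first intron of Mdm2, were not searched. The Ccng1 window is printed whole because its element is the closest match among the measured genes, with the element in capitals.
Ccng1, chr11:40755237-40755536, minus strand: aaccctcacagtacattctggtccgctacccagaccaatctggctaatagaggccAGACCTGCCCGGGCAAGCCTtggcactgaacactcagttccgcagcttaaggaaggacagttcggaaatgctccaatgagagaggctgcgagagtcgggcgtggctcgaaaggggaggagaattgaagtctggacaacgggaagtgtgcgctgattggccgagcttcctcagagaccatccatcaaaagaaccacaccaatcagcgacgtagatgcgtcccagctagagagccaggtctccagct

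The comparison asked whether p53 response genes differed between 4OHT and vehicle wells. Trp53inp1 was higher in 4OHT wells, Fas was lower, and the other 5 did not pass the test. A gene was called where its adjusted p, from limma's moderated test with Benjamini-Hochberg adjustment over all 22180 genes, lay under 0.05. Thus 2 of 7 measured genes were called (28.6%), 1 higher and 1 lower, against 12.0% of all genes, of which 5.38% were higher and 6.62% lower. With 7 genes, 1 call is 1 in 7, so these shares are coarse. The 12.0% covers dim genes too. In a fit of the 11090 genes above the median level, 3884 were called, among them 4 of the 7. The 3 values of 1 group lay wholly beyond the 3 of the other in 5 of the 7 genes, 4 toward higher and 1 toward lower levels in 4OHT wells, against 32.7% of all genes in either direction. The median log2 fold change was 0.06 over the 7 genes and -0.01 over all genes. In these bulk samples, fewer cells of a type and less RNA per cell cannot be told apart.

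**Figure D1:**
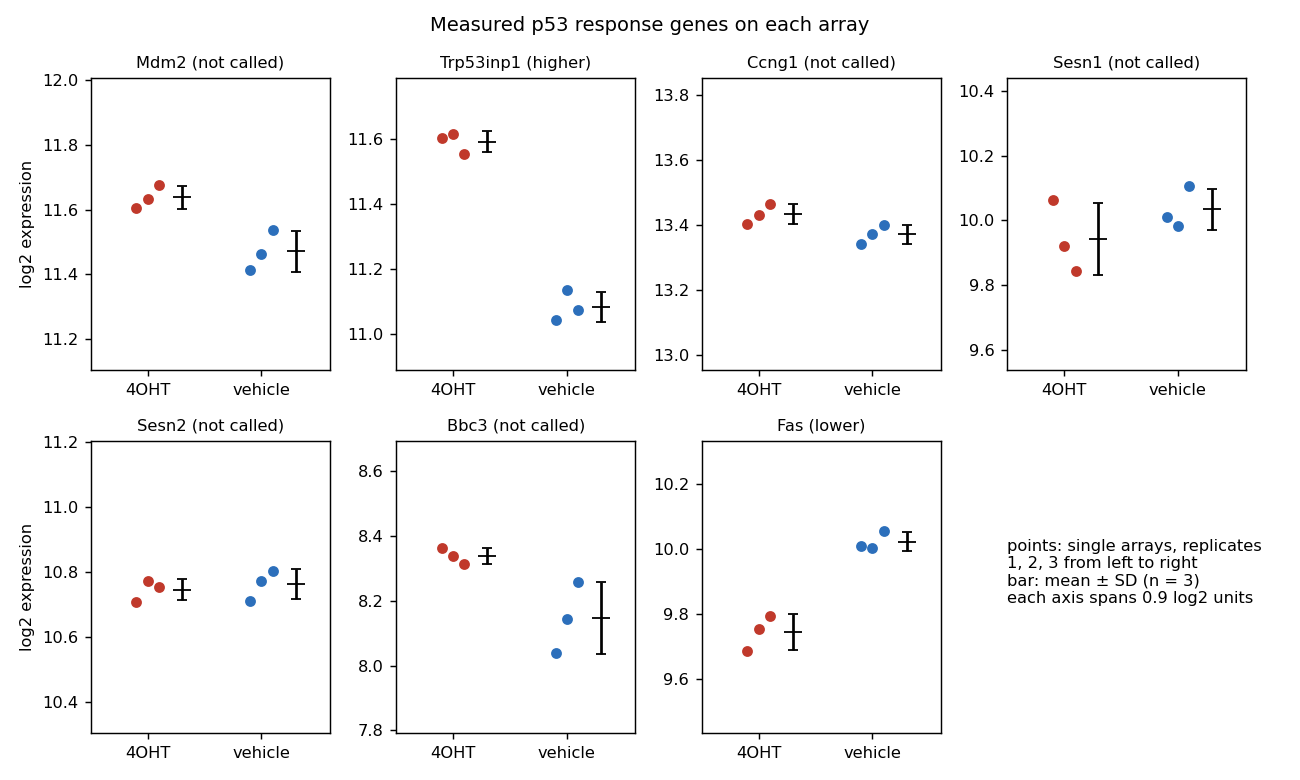
Log2 expression of the 7 measured p53 response genes on each array, 1 panel per gene, with 4OHT wells in red and vehicle wells in blue. Each point is 1 array, the bars are the mean ± SD (n = 3), and every vertical axis spans the same number of log2 units. Trp53inp1 and Fas show the widest separation of the groups, in opposite directions, and the groups overlap for Sesn1 and Sesn2.

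Trp53inp1 encodes a nuclear and autophagy-linked protein that enhances the activity of p53 and is also its target. Its log2 expression was 11.61, 11.62 and 11.56 in 4OHT wells, against 11.04, 11.13 and 11.07 in vehicle wells. The groups stood 0.42 log2 units apart at their closest points, several times the spread within either group. It rose 1.42-fold (log2 fold change 0.51, SE 0.046, 95% interval 0.40 to 0.62, limma adjusted p = 0.0012). The call held without any 1 of the 6 arrays, with adjusted p from 0.0048 to 0.0094. Its relative Trp53inp2, which acts mainly in autophagy, differed by 0.06 on the log2 scale (adjusted p = 0.446).

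The genes whose pattern over the 6 arrays was most like that of Trp53inp1 were Qpct, with Pearson's r = 0.9998, and Zfyve9 and Sema3b, each with r = 0.9992. The arrays fall into 2 groups, so such an r mainly records the difference between them, and it is given as a description. Qpct encodes the enzyme that forms pyroglutamate at the ends of peptides and rose 1.52-fold (adjusted p = 0.00088). Zfyve9 encodes an endosomal adaptor for TGF-beta receptors and rose 1.23-fold, and Sema3b, a secreted semaphorin gene, rose 1.84-fold.

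Mdm2 closes the feedback loop on p53. Its log2 expression was 11.60, 11.63 and 11.68 in 4OHT wells, against 11.41, 11.46 and 11.54 in vehicle wells. All 4OHT wells lay above all vehicle wells, by 0.07 log2 units at the closest points. The log2 fold change was 0.17 (SE 0.050, 95% interval 0.05 to 0.29), and the adjusted p of 0.0843 from limma missed the threshold. It passed when eBayes was run with a trend and robustly (adjusted p = 0.0087), as did 4123 of 22180 genes. It also passed when only genes above the median level were tested (0.0201), as did 3884 of 11090 genes. Over all 17 alternatives its log2 fold change lay between 0.13 and 0.20 and its adjusted p between 0.0087 and 0.240. Its relative Mdm4, which also binds and inhibits p53, differed by 0.12 on the log2 scale (adjusted p = 0.317).

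Among targets that act on the cell cycle and growth signalling, Ccng1, Sesn1 and Sesn2 did not pass the test. Ccng1 encodes cyclin G1, a classic p53 target that recruits a phosphatase to Mdm2, and is the gene whose promoter window is printed above. Its log2 expression was 13.40, 13.43 and 13.47 in 4OHT wells, against 13.34, 13.37 and 13.40 in vehicle wells. The groups were apart by only 0.0051 log2 units. The log2 fold change was 0.06 (95% interval -0.04 to 0.16, limma adjusted p = 0.421), and the interval ends well below that of Trp53inp1. Ccng1 is bright, toward the highest gene mean of 14.28, where array values can compress a change, and this was not tested. Ccng2, which encodes the related cyclin G2, differed by 0.14 on the log2 scale (adjusted p = 0.217).

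Sesn1 and Sesn2 encode sestrins, stress-induced proteins that restrain the growth kinase complex mTORC1 through the GATOR complexes. Sesn1 had a log2 expression of 10.06, 9.92 and 9.84 in 4OHT wells, against 10.01, 9.98 and 10.11 in vehicle wells. Its groups overlapped, and the 4OHT wells spread more widely than the vehicle wells (SD 0.11 and 0.06, n = 3 each). The log2 fold change of Sesn1 was -0.09 (95% interval -0.26 to 0.07, limma adjusted p = 0.463).

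Sesn2 had a log2 expression of 10.71, 10.77 and 10.75 in 4OHT wells, against 10.71, 10.77 and 10.80 in vehicle wells. The groups covered nearly the same range. The log2 fold change of -0.02 (95% interval -0.13 to 0.09, limma adjusted p = 0.852) changed sign without 4OHT replicate 1 (0.00022) or vehicle replicate 3 (0.0027) and with the arrays centred on the genes tested (0.0034), and no setting called it. The other sestrin gene, Sesn3, which is known mainly as a target of FoxO factors, fell by 0.32 (log2, with an SE of 0.043 and limma adjusted p = 0.0056) and kept its call without any 1 array (highest adjusted p 0.0315).

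Of the death genes, Bbc3 lay higher without passing and Fas fell. Bbc3 encodes Puma, a small BCL2 family protein that frees the pore formers of the mitochondrial membrane. Its log2 expression was 8.36, 8.34 and 8.31 in 4OHT wells, against 8.04, 8.14 and 8.26 in vehicle wells. All 4OHT wells lay above all vehicle wells by 0.06 log2 units, and the vehicle wells were the more scattered (SD 0.02 in 4OHT wells and 0.11 in vehicle wells, n = 3 each). The log2 fold change was 0.19 (SE 0.063, 95% interval 0.04 to 0.34), and limma's adjusted p of 0.109 missed the threshold. Bbc3 passed when only genes above the median level were tested (adjusted p = 0.0326), a setting that called 3884 of 11090 genes. It passed under no other alternative of 17.

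Fas encodes the death receptor CD95 on the cell surface, which p53 is known to induce. Its log2 expression was 9.68, 9.75 and 9.80 in 4OHT wells, against 10.01, 10.00 and 10.06 in vehicle wells. Every 4OHT well lay below every vehicle well, by 0.21 log2 units at the closest points. Fas fell by 0.28 (log2), or 1.21-fold (SE 0.048, 95% interval -0.39 to -0.16, limma adjusted p = 0.0134). The call was lost without 4OHT replicate 2 (adjusted p = 0.0551), at an unchanged size of -0.28, and held without any other single array.

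**Figure D2:**
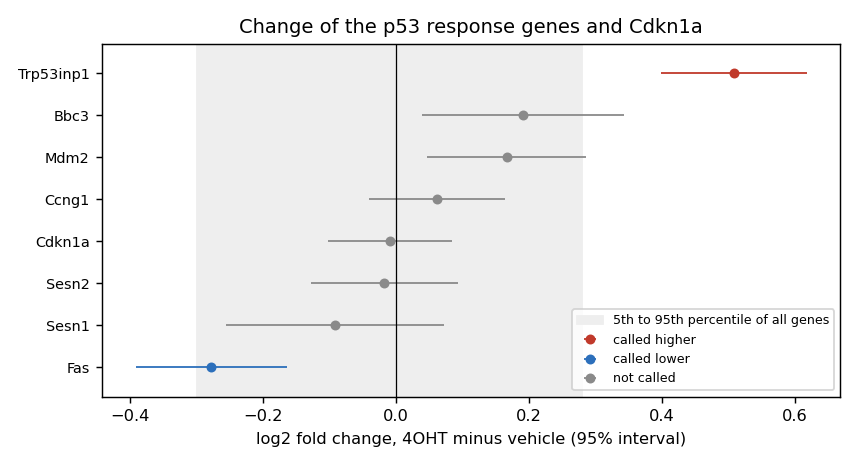
Log2 fold change, 4OHT minus vehicle, with its 95% interval for the 7 measured p53 response genes and for Cdkn1a, sorted by size. The grey band holds the values of all genes between the 5th percentile (-0.30) and the 95th (0.28), and of the genes shown only the point of Trp53inp1 lies outside it, at 0.51.

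Cdkn1a encodes p21, the inhibitor that carries out the arrest arm of the p53 response, and its promoter element fits as well as that of Ccng1. Its log2 expression was 13.70, 13.68 and 13.70 in 4OHT wells, against 13.71, 13.71 and 13.69 in vehicle wells. The log2 fold change was -0.01 (95% interval -0.10 to 0.08, limma adjusted p = 0.907), so the upper bound lies below the lower bound of Trp53inp1. Cdkn1a lies near the highest gene mean of 14.28, where array values can compress a change, and this was not tested. Its log2 fold change was 0.01 with the arrays centred on the genes tested, and no setting called it.

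**Figure D3:**
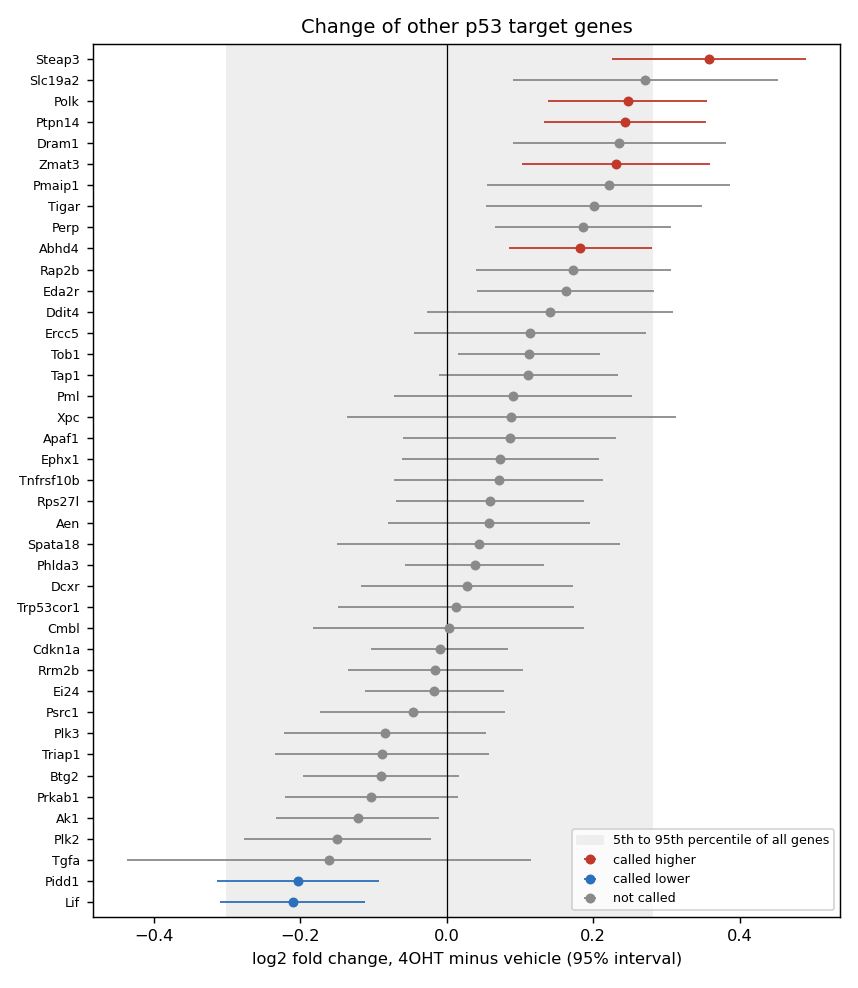
Log2 fold change, 4OHT minus vehicle, with its 95% interval for the 41 measured genes of the list of other p53 targets, Cdkn1a among them. Genes called higher (5) are red, genes called lower (2) are blue and the 34 not called are grey, and the grey band runs between the 5th and the 95th percentile of all genes.

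A wider list held 44 other p53 targets. Of 41 measured members, Cdkn1a included, 5 were called higher and 2 lower, which is 17.1% of the list against 12.0% of all genes. In the fit of genes above the median level, 13 of 38 were higher and 4 lower, against 1750 and 2134 of 11090 genes. The median log2 fold change of the 41 was 0.07, against -0.01 over all genes, and 28 members had a positive and 13 a negative value. The median kept its sign under each other scaling, from 0.03 to 0.09, but with the arrays centred on their medians only 1 member was called higher. Steap3, a ferrireductase gene, rose by 0.36 (log2, SE 0.056, limma adjusted p = 0.0094) and kept its call without any 1 array (highest adjusted p 0.0437). Polk, which encodes a DNA polymerase that copies past lesions, rose by 0.25, the phosphatase gene Ptpn14 by 0.24 and Zmat3, which encodes an RNA-binding splicing regulator, by 0.23. Named after their values were seen, Abhd4 rose by 0.18, while Pidd1, which helps to activate caspase-2, and the cytokine gene Lif fell by 0.20 and 0.21, and none of these 3 kept its call in any fit that left out an array (adjusted p 0.0531 to 0.127). With the arrays centred on their medians, the calls of Polk (adjusted p = 0.0583), Ptpn14 (0.0512), Zmat3 (0.0708) and Abhd4 (0.108) were lost. Leaving out single arrays changed these counts. 2 were higher without 4OHT replicate 1, 1 without 4OHT replicate 2, vehicle replicate 1 or vehicle replicate 2, 4 without 4OHT replicate 3 and 5 without vehicle replicate 3, and none was lower without any of the 6. The 5 without vehicle replicate 3 included Steap3, Polk and Ptpn14, but neither Zmat3 (adjusted p = 0.0681) nor Abhd4 (0.0819). Over all 22180 genes, the 6 fits called 486 to 986 higher and 734 to 1340 lower.

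Genes that signal to p53 or modify it moved in both directions. Of 25 measured regulators of p53, 5 were called higher and 2 lower (28.0% of the list against 12.0% of all genes), with a median log2 fold change of 0.09 that stayed positive under each other scaling (0.05 to 0.11). With the arrays centred on their medians, 3 were called higher and 3 lower. In the fit of genes above the median level, 7 of 23 regulators were higher and 2 lower, against 1750 and 2134 of 11090 genes. Atm, the kinase that answers double-strand breaks, had a log2 expression of 9.45, 9.50 and 9.16 in 4OHT wells, against 8.56, 8.65 and 8.70 in vehicle wells. All 4OHT wells lay above all vehicle wells, with replicate 3 the lowest of the 4OHT wells. Atm rose 1.66-fold (log2 fold change 0.73, SE 0.095, limma adjusted p = 0.0047) and kept its call without any 1 array (highest adjusted p 0.0242). Prkdc, the catalytic subunit gene of the DNA end-joining kinase, rose by 0.43 (adjusted p = 0.0304), and Huwe1, a ubiquitin ligase gene, by 0.32 (adjusted p = 0.0264). Chek1, a checkpoint kinase gene that is itself highest in dividing cells, fell by 0.34 (adjusted p = 0.0365). Prkdc, Huwe1 and Chek1 each kept their call in 1 of the 6 fits that left out an array, the one without 4OHT replicate 3, with adjusted p in the others up to 0.106, 0.0924 and 0.121.

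The other calls among the regulators, named after their values were seen, were the kinase gene Hipk2 (0.20), the acetyltransferase gene Ep300 (0.21) and Ppp1r13b, which encodes a p53-binding apoptosis regulator (-0.28). With the arrays centred on their medians, Hipk2 (adjusted p = 0.0805) and Ep300 (0.0671) lost their calls, and each kept it in 1 of the 6 fits that left out an array. Ppp1r13b lost its call only without 4OHT replicate 2 (0.0501) among those 6. Without 4OHT replicate 1, 4OHT replicate 2, vehicle replicate 1, vehicle replicate 2 or vehicle replicate 3, only 1 regulator was higher, and without 4OHT replicate 3 there were 6. None was lower without 4OHT replicate 2, and 1 was lower without 4OHT replicate 1, vehicle replicate 1 or vehicle replicate 2. Over all 22180 genes, the 6 fits called 486 to 986 higher and 734 to 1340 lower. Of regulators not called, the kinase gene Chek2 differed by -0.30 on the log2 scale (limma adjusted p = 0.0631). Ppm1d, the phosphatase gene that is both a p53 target and a brake on Atm signalling, differed by 0.0046 on the log2 scale (adjusted p = 0.965). Cdkn2a, whose Arf product inhibits Mdm2, differed by 0.09 on the log2 scale (adjusted p = 0.302).

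Of 8 relatives of the rule's genes, all measured, 2 fell, none was called higher and 6 were not called. That is 25% of the list called, against 12.0% of all genes, on a count of 2, and the list's median log2 fold change was 0.09. Among genes above the median level, 2 of 6 relatives were lower and none higher, against 2134 and 1750 of 11090 genes. Beside Sesn3, Gadd45g, a stress-sensor gene of the Gadd45 family, fell by 0.35 (adjusted p = 0.0207), and its call was lost without 4OHT replicate 2 (0.0664), vehicle replicate 1 (0.0521), vehicle replicate 2 (0.0669) or vehicle replicate 3 (0.0638). Gadd45b differed by -0.09 on the log2 scale (adjusted p = 0.257). Trp63 and Trp73, which encode the p53 family members p63 and p73, had log2 fold changes of 0.12 and 0.11 (adjusted p = 0.147 and 0.302), and Trp63 lay within the range of 95% of the 1105 olfactory receptor genes, which fibroblasts are not known to use.

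**Figure D4:**
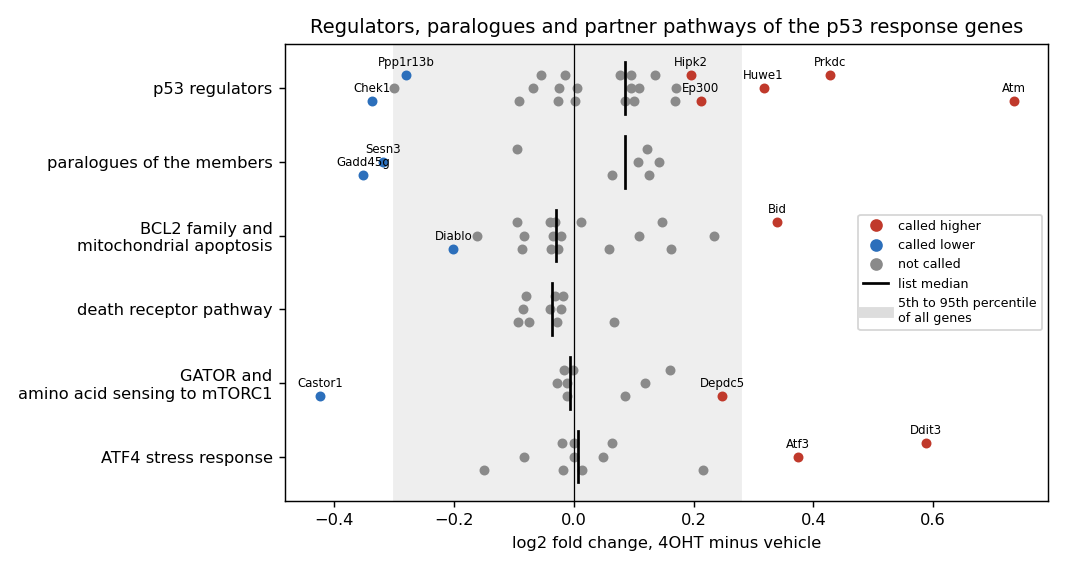
Log2 fold change, 4OHT minus vehicle, of each measured gene in 6 lists: regulators of p53, relatives of the rule's genes, and the apoptosis, death receptor, GATOR and ATF4 pathways. Each point is 1 gene, labelled where called, the black bar is the list's median and the grey band runs between the 5th and the 95th percentile of all genes. Atm (0.73) and Ddit3 (0.59) lie farthest right and Castor1 (-0.42) farthest left.

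The pathways in which the measured targets act were set beside them. Among 18 measured BCL2 family and mitochondrial death genes, Bid rose by 0.34 (adjusted p = 0.0137) and Diablo fell by 0.20 (adjusted p = 0.0334), which is 11.1% of the list against 12.0% of all genes. Bid, which carries the signal of death receptors to mitochondria, lost its call without 4OHT replicate 2 (adjusted p = 0.0536), and the list had 2 genes higher without 4OHT replicate 3. Diablo, whose product frees caspases from their inhibitors, kept its call in only 1 of the 6 fits that left out an array (adjusted p 0.0494 to 0.123). Pmaip1, which encodes Noxa, a death protein of the same class as Puma, differed by 0.22 on the log2 scale (adjusted p = 0.0945).

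In the death receptor pathway, to which Fas belongs, none of 10 measured genes was called by limma or under any of the 17 alternatives. Of all genes, 12.0% were called in the reported fit, and on 10 genes a count of none lies near that share. The share differed between alternatives. The trended and robust eBayes called 4123 of 22180 genes and none of the 10. The fit of genes above the median level called 3884 of 11090 genes and none of the 8 list genes in it. The smallest unadjusted limma p among the 10 was 0.0863, for Daxx. The 2 of smallest p were Daxx, a Fas-binding nuclear adaptor gene, at -0.09 (adjusted p = 0.262) and Casp8, the initiator caspase gene, at -0.08 (adjusted p = 0.279). Fasl, the ligand gene of Fas, lay within the olfactory receptor range. The list's median was -0.04, and 9 of its 10 values were negative, against 11402 of 22180 over all genes. With the arrays centred on the genes tested, 7 of the 10 were negative.

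Of 10 genes of the GATOR complexes and of amino acid sensing, on which sestrins act, 2 were called (20%, against 12.0% of all genes). When only genes above the median level were tested, 2 of the 10 were higher and 1 lower, against 1750 and 2134 of 11090 genes. Castor1, which encodes the arginine sensor, fell by 0.42 (SE 0.044, adjusted p = 0.0019), with a log2 expression of 10.61, 10.63 and 10.67 in 4OHT wells, against 11.06, 11.02 and 11.09 in vehicle wells. Its groups were far apart, and the call held without any 1 array (highest adjusted p 0.0135). Depdc5, a subunit gene of the GATOR complex that switches mTORC1 off, rose by 0.25 (adjusted p = 0.0131). Its call did not hold without 4OHT replicate 2 (0.0559) or vehicle replicate 2 (0.0575). The list's median of -0.01 turned to 0.01 with the arrays centred on the genes tested.

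Sesn2 and Bbc3 are also known targets of stress factors other than p53, so 12 genes of the ATF4 response, a programme of amino acid and endoplasmic reticulum stress, were set beside them. Of the 12, 2 were called, both higher (16.7%, against 12.0% of all genes). The fit of genes above the median level had 3 of the 12 higher and 1 lower, against 1750 and 2134 of 11090 genes. Ddit3, which encodes the stress factor Chop, had a log2 expression of 11.63, 11.67 and 11.61 in 4OHT wells, against 11.00, 11.04 and 11.11 in vehicle wells. It rose by 0.59 (log2, SE 0.047, limma adjusted p = 0.00084), a call that held without any 1 array (highest adjusted p 0.0067). Atf3, an immediate stress factor gene that p53 can also induce, rose by 0.37 (adjusted p = 0.0178). Its call was lost without 4OHT replicate 1 (log2 fold change 0.38, adjusted p = 0.0575), vehicle replicate 1 (0.34, 0.0608) or vehicle replicate 2 (0.39, 0.0555). The other 10 were not called. Among them, Ppp1r15a differed by 0.22 (limma adjusted p = 0.0533) and Atf5 by -0.15 (adjusted p = 0.118). Atf4 (-0.00029), Trib3 (0.05), Asns (-0.08) and Chac1 (-0.02) differed less. The list's median was 0.01, which turned to -0.03 with the arrays centred on their medians.

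**Figure D5:**
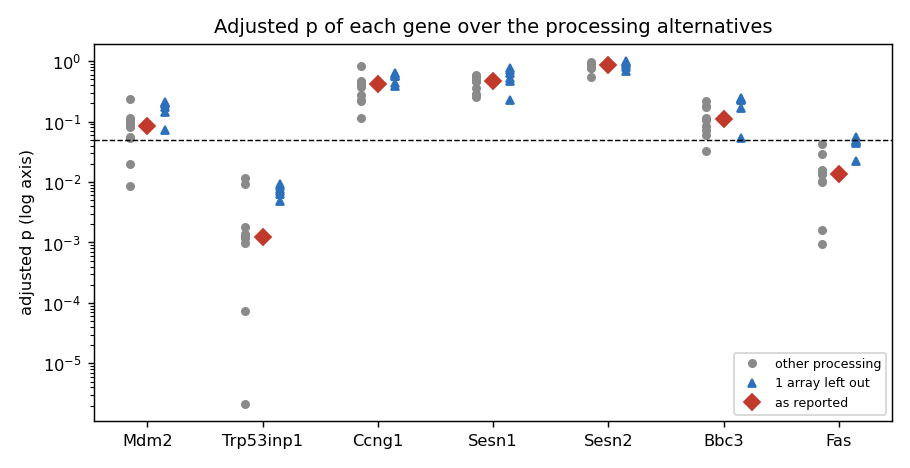
Adjusted p of the 7 measured p53 response genes, on a log axis, as reported (red), under the other processing alternatives (grey) and with 1 array left out at a time (blue). The dashed line is the threshold of 0.05. Trp53inp1 stays below it throughout, Fas crosses it once when an array is left out (0.0551), and Ccng1, Sesn1 and Sesn2 stay above it.

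Facts of the whole series bear on these values as follows. Arrays of a group correlated at 0.997 to 0.998 over all genes, and arrays of different groups at 0.995 to 0.996. All 7 measured genes lay above the 95th percentile of olfactory receptor genes (6.47) and above the median level of all genes (7.46). The cultures carried fibroblast markers, whose mean log2 level was 12.60 to 12.62 in 4OHT wells and 12.68 to 12.70 in vehicle wells, with 1 of 10 markers, Col3a1, called lower. Some lists of markers used for other cells differed between the groups, and others did not. Smooth muscle and pericyte markers averaged 11.86 to 11.93 in 4OHT wells and 12.39 to 12.41 in vehicle wells, and 5 of 6 were lower. Mesothelial markers were well above background and averaged 11.55 to 11.58 in 4OHT wells and 11.71 to 11.75 in vehicle wells, with 2 of 4 lower and 1 higher. Of 8 endothelial markers, 3 were lower and 2 higher, 5 of the 8 lay within the olfactory receptor range, and the list averaged 6.59 to 6.65 in 4OHT wells and 6.74 to 6.86 in vehicle wells. Macrophage markers averaged 6.75 to 6.89 in 4OHT wells and 6.75 to 6.79 in vehicle wells, with Cd68 alone of 8 higher and 3 of the 8, Ptprc, Mrc1 and Adgre1, within the olfactory receptor range. No epithelial (7) or lymphocyte (5) marker was called, and 5 of each lay within that range. The part of these cells in the changes of Trp53inp1 and Fas was not tested.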

How the data were processed

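The authors deposited 1 table of log2 values by probe set, covering 6 single-colour arrays. Oligo, RMA and limma are named, without versions, per the submitters' processing notes. RMA corrects background, equalizes array distributions by quantiles and summarizes probe sets. It thus removes a shift shared by all genes and compresses dim changes. Very bright array values can also compress a change. RNA (100 ng) was amplified from an oligo(T) primer, per the labels' protocols. No genome build for the array was stated in the labels.

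In the platform annotation, 23521 of the table's 41345 probe sets carried a single symbol, 1814 had several and 16010 none. The probe set with the highest mean stood for each gene, which gave 22180 genes with no filter on dim ones. 4OHT and vehicle arrays (n = 3 each) were compared with limma 3.58.1 under R 4.3.3 (lmFit, eBayes with no trend, 6.70 degrees of freedom, two-sided) on the log2 values, with Benjamini-Hochberg adjustment over all genes. Fold changes are 4OHT over vehicle. The fit was tested on simulated data. No group of 3 against 3 can pass an exact two-sided permutation test below p = 0.1, so none was used.

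The members, the 7 pathway lists (131 symbols, 124 measured) and the marker lists were chosen with earlier results of these data known. Named are the measured members, Cdkn1a, up to 4 called genes of largest change per list (or the 2 of smallest p where fewer than 2 were called), the 3 genes most like the called member of largest change, and, as background, relatives of the members and a few list genes named after their values were seen. Promoter sequences are RefSeq's (GRCm38.p6), matched by symbol.

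The reported fit did not pair the arrays by replicate number. Alternatives were the replicate block, scaling, a level filter, the choice of probe set, the estimate of spread, array weights, a stricter threshold and leaving out each array.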

Additional observations from a re-analysis of the deposited data

How the results depend on the processing

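Of the 7 measured p53 response genes, 2 were called as reported. The number was 4 among genes above the median level, where 3884 of 11090 genes were called. It was 3 with a trended and robust eBayes (Mdm2 was added), 1 at an adjusted p under 0.01 (Fas was lost) and 1 to 2 with an array left out. Over all genes, 2662 calls became 1568 with the replicate number as a block, 4123 with a trended and robust eBayes, 1010 at an adjusted p under 0.01 and 1220 (without 4OHT replicate 2) to 2326 (without 4OHT replicate 3) with an array left out. The replicate block left 2 of the 7 genes called. Deviations of same-numbered arrays from their group means correlated at 0.0624, -0.0239 and 0.0432. Between arrays of different number the range was -0.0763 to 0.0315. Values this small show no clear pairing of the wells and cannot exclude it. The split of calls over all genes was 44.8% higher, 30.7% with arrays centred on the medians of all probe sets and 52.2% with centring on the genes tested, a setting added once the data had been seen. Over the 17 alternatives, other p53 targets had 1 to 13 genes higher (5 as reported) and 0 to 4 lower (2), regulators 1 to 7 higher (5) and 0 to 3 lower (2), relatives 1 to 2 lower (2), BCL2 family genes 0 to 4 higher (1) and 0 to 1 lower (1), GATOR genes 0 to 2 higher (1), and ATF4 genes 1 to 3 higher (2) and 0 to 2 lower (0). Signs were tabulated only for the measured members, Cdkn1a and the called or rule-named list genes, and among these no called gene changed sign. The cause of these differences was not tested. Probe sets alone cannot tell isoforms apart, and no second probe set checks any of the 7 genes.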
